A study of Mus musculus with 2 samples.

Results

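GABA-A receptors are chloride channels built from 5 subunits around a central pore, and they carry most of the fast inhibition in the cerebral cortex. GABA binds at the interface between an alpha and a beta subunit, the alpha subunit sets much of the receptor's pharmacology and its place at the synapse, and the delta subunit replaces the gamma subunit in receptors outside the synapse. EGR1 is a zinc finger transcription factor whose gene is switched on within minutes of neuronal activity, and its known binding sequence is GC rich and contains CpG dinucleotides. The 7 genes described here are the alpha subunit genes Gabra2, Gabra3, Gabra4 and Gabra5, the beta subunit genes Gabrb1 and Gabrb2, and the delta subunit gene Gabrd. They were taken by name from the 19 genes of the family in the mouse. The comparison asks at which of these genes EGR1 occupied chromatin in the frontal cortex, and where in the gene.

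The data were a single list of 12014 EGR1 peaks from chromatin immunoprecipitation and sequencing (ChIP-seq) of the frontal cortex of male mice aged 6 weeks. The mice were F1 hybrids of the strains 129SvEv and C57BL/6N. Cortices of several mice were pooled for each immunoprecipitation with an antibody against EGR1, and the list merges the reproducible peaks of 2 replicates. An input DNA sample from the same strain, tissue and age was the second sample of the series, and no values of it were analysed here. The tissue holds neurons and glia together, so a peak does not say in which cells EGR1 was bound, and a list of peaks cannot be checked against marker genes of the cortex. Each peak carried its position on the mouse genome build mm10 and an irreproducible discovery rate (IDR), a measure read like a false discovery rate, of peaks whose rank is not shared by both replicates. A lower IDR therefore means a more reproducible peak. The IDR ran up to 0.020, and its median over all peaks was 0.000321. The list holds neither read counts nor the strength of binding in each replicate, so the depth behind a peak is unknown and no difference between genes could be tested. All comparisons are descriptions of 1 merged list.

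A peak was assigned to a gene when its centre lay inside the gene body or within 10 kb of an annotated transcription start site (TSS, GENCODE M21). By this rule 9 of the 12014 peaks lay at the 7 genes. Gabra2, Gabra4, Gabra5, Gabrb1 and Gabrb2 had at least 1 peak, and Gabra3 and Gabrd had 0. Because Gabra4 and Gabrb1 lie head to head, 2 of the peaks belonged to both, and the 9 peaks made 11 pairs of a gene and a peak. The 7 genes were chosen with earlier results of these data known, and 2 of the 12 other subunit genes had a peak. Over all 22028 protein-coding genes the same rule gave a peak to 8688, or 39.4%, against 5 of the 7 genes described here. A peak within 1 kb of a start site was present at 5 of the 7 genes, the same 5. Over all protein-coding genes it was present at 6165 of 22028, or 28.0%. Those 6165 were all among the 8688 genes with a peak by the rule.

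The DNA under the peaks is shown here because it carries the base composition and the sites described further on. The first set holds, for each gene with a peak, the peak nearest to a start site, and annotated untranslated sequence was left out of it. For the peak shared by Gabra4 and Gabrb1, which lies almost wholly in untranslated sequence, only the 29 bases around its most central site are given. All are written on the plus strand of mm10 (GRCm38). The EGR1 binding sequence was searched as GCGTGGGCG and GCGGGGGCG on both strands. Within the printed bases, capitals mark every 9-base word with the fewest mismatches to it in that peak. The Gabra5 start peak and the peak at the shared Gabra4 and Gabrb1 start held further such words in the bases left out.
Gabra2 start, chr5:71095850-71095968: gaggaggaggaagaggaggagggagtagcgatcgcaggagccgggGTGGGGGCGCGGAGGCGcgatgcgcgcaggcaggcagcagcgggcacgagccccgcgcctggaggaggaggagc
Gabra4 and Gabrb1 start, chr5:71658003-71658031: gcgggacctgCGCGCCCGCCCCCTCcctc
Gabra5 start, chr7:57510060-57510206: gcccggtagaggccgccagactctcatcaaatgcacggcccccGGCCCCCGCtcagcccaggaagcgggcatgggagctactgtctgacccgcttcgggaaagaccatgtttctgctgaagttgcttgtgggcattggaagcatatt
Gabrb2 start, chr11:42420159-42420408: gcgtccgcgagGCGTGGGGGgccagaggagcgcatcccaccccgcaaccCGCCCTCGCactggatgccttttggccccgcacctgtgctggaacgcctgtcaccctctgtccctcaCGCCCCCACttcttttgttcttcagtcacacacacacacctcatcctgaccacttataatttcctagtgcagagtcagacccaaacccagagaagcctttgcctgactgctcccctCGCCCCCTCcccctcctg

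The second set holds the remaining peaks, printed to show how the DNA differed with place in the gene. All but the peak beside the Gabra4 start lay over 2 kb from every start site. The Gabra2 peaks at 69.6 kb and 33.9 kb into the gene come first, then the peak beside the Gabra4 start, the Gabrb1 intronic peak and the Gabra5 intronic peak.
Gabra2 intron, chr5:71026164-71026256: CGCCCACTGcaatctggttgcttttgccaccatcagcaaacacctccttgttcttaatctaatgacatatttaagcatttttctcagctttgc
Gabra2 intron, chr5:71061870-71062071: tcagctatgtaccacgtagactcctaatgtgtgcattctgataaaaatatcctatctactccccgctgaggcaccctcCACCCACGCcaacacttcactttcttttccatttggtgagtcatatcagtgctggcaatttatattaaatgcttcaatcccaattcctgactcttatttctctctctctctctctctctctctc
Gabra4 intron, chr5:71656871-71657071: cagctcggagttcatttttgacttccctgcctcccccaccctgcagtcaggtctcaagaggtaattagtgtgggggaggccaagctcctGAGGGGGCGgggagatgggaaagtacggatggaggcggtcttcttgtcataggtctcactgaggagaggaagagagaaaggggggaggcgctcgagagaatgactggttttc
Gabrb1 intron, chr5:71917300-71917563: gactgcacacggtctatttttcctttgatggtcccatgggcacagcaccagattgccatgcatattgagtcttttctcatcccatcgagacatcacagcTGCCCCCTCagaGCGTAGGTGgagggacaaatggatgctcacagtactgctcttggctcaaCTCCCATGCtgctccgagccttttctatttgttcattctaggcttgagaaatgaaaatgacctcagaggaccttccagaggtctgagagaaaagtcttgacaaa
Gabra5 intron, chr7:57471490-57471753: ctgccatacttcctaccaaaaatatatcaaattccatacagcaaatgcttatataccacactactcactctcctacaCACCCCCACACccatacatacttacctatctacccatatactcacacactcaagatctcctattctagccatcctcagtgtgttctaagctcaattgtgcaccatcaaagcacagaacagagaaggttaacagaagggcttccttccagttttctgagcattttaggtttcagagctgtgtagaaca

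Gabra2, which encodes the alpha 2 subunit found at many forebrain synapses, had 3 peaks and the lowest IDR of the 7 genes. The gene spans chr5:70957597-71095849 on the minus strand, 138.0 kb. Its start site peak, chr5:71095769-71095968, was 200 bp wide, and its centre lay 20 bp upstream of the most upstream start site. The IDR of this peak was 1.14e-05, which put it at rank 3841 of the 12014 peaks. Both other peaks lay deep inside the gene and were more reproducible than the one at the start. The peak at chr5:71061870-71062071, 33.9 kb into the gene, had an IDR of 4.74e-07 and rank 2164, and lay in intron 3 of the full-length protein-coding transcript. The peak at chr5:71026164-71026256, 69.6 kb into the gene, had an IDR of 3.36e-07 and rank 1821, and lay in intron 4 of that transcript. This last peak was the narrowest of the 9, at 93 bp. It also lay 12526 bp upstream of the start of a shorter annotated transcript, Gabra2-202.

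Gabra4, which encodes the alpha 4 subunit of receptors outside the synapse, and Gabrb1, which encodes the beta 1 subunit, are neighbours transcribed in opposite directions. Their annotated bodies, chr5:71569749-71658308 on the minus strand and chr5:71658113-72149037 on the plus strand, overlap by 196 bp at their starts. The peak at chr5:71657891-71658145, 255 bp wide, reached into this overlap from the Gabra4 side, and its centre lay outside it. Its centre lay 37 bp upstream of the nearest Gabra4 start site, in the first exon of the longer transcript Gabra4-201, and 95 bp upstream of the Gabrb1 start site. Its IDR was 8.03e-05, rank 4933. A second peak, chr5:71656871-71657071, lay 1047 bp away, centre to centre, on the Gabra4 side, and it was the more reproducible of the pair, with an IDR of 1.06e-06 and rank 2607. This second peak lay 1337 bp into Gabra4, in intron 2 of its protein-coding transcripts and exon 2 of a transcript with a retained intron, and 1142 bp upstream of the Gabrb1 start site. Both peaks lay in the Gabra4 body and upstream of the Gabrb1 start site, and they were counted for both genes. Of the 11938 peaks on assembled chromosomes, 2268, or 19.0%, had another peak within 2 kb, as these 2 of the 9 did.

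Gabrb1 also had a peak of its own. The peak at chr5:71917300-71917563, 264 bp wide, lay 259.0 kb into this 491.0-kb gene, in intron 4 of transcript Gabrb1-201. Its IDR was 7.86e-05 and its rank 4919, next to those of the peak at the shared start region. The nearest other EGR1 peak was 259414 bp away, so this was the most isolated of the 9.

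Gabrb2, which encodes the abundant beta 2 subunit, had a single peak. The gene spans chr11:42419757-42629028 on the plus strand. The peak, chr11:42420159-42420408, was 250 bp wide and lay in intron 1, 520 bp downstream of the nearest GENCODE start site, with an IDR of 0.000224 and rank 5677. In RefSeq a later start is annotated, and the promoter window of that start, 250 bases before it to 50 after, overlapped the peak. The centre of the peak lay in no annotated Gabrb2 exon. Another peak 28618 bp upstream of the gene, at chr11:42391014-42391263 with an IDR of 0.0057, fell outside the 10-kb limit.

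Gabra5, which encodes the alpha 5 subunit best known from hippocampal pyramidal cells, had the least reproducible of the 9 peaks. The gene spans chr7:57407672-57510059 on the minus strand. Its start site peak, chr7:57509957-57510206, was 250 bp wide and centred 23 bp upstream of the start. The IDR of this peak was 0.0083, rank 10316, so 85.9% of all peaks ranked at or before it. The other peak, chr7:57471490-57471753, lay 38.4 kb into the gene in intron 5 of transcript Gabra5-201, with an IDR of 0.000749 and rank 6846. As at Gabra2, the peak inside the gene had a lower IDR than the peak at the start.

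Gabra3 and Gabrd, which encode the alpha 3 subunit and the delta subunit, had 0 peaks. For Gabra3, on chromosome X at 72432681 to 72656848, the nearest peak to a start site lay 571.0 kb away and 198 bp from the start site of F8a. The 0.587-Mb stretch of chromosome X from Gabre through Gabra3 to Gabrq held 0 peaks. Peaks were sparse on that chromosome, at 164 in all or 0.959 per Mb, against 5.39 per Mb on chromosome 5, 6.24 on chromosome 7 and 8.14 on chromosome 11. Male mice carry a single chromosome X, and the part of copy number or of read mapping in this difference was not tested. For Gabrd, a short gene of 13.1 kb at chr4:155384980-155398112, the nearest peak, chr4:155382881-155383130, lay just past the 3′ end of the gene, 15.0 kb from a start site, with an IDR of 0.000949. Among the peaks counted at the 7 genes but outside a gene body, the farthest from a start site lay 1142 bp away, so no count rested on a peak near the 10-kb limit. The absence of a gene from the list says that no peak reached the reproducibility limit there, not that EGR1 was absent.

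**Figure D1:**
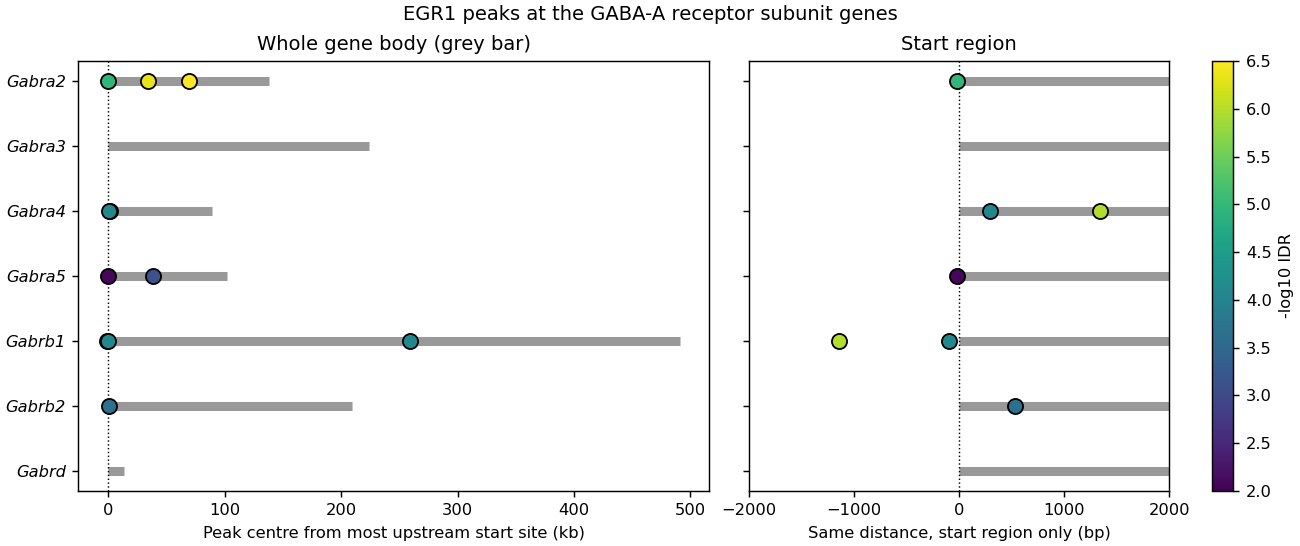
EGR1 peaks along the 7 genes. Grey bars are gene bodies drawn from the most upstream start site (dotted line), in kb on the left and, for the nearest 2 kb on either side, in bp on the right, and each point is 1 peak coloured by −log10 IDR. Peaks shared by Gabra4 and Gabrb1 are drawn at both genes. All 5 genes with a peak have one within 1 kb of a start site, Gabra2, Gabra5 and Gabrb1 have others far inside, and Gabra3 and Gabrd have 0.

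The 9 peaks were spread over most of the range of reproducibility. Their IDR ran from 3.36e-07 to 0.0083, with a median of 7.86e-05, and 7 of the 9 had an IDR at or under the median of all peaks, 0.000321. Of the 9, 5 lay within 2 kb of an annotated start site of any gene, and their median IDR was 8.03e-05 against 9.91e-05 over the 7598 such peaks of the list. The 4 that lay farther from every start site had a median IDR of 3.95e-05, against 0.00125 over the 4340 such peaks. The peaks over 2 kb from every start site thus had the lower median IDR among these 9, whereas over the whole list the median IDR was lower near start sites. With 4 and 5 peaks this is a description and was not tested. The median width was 250 bp for the 9 and for all peaks.

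**Figure D2:**
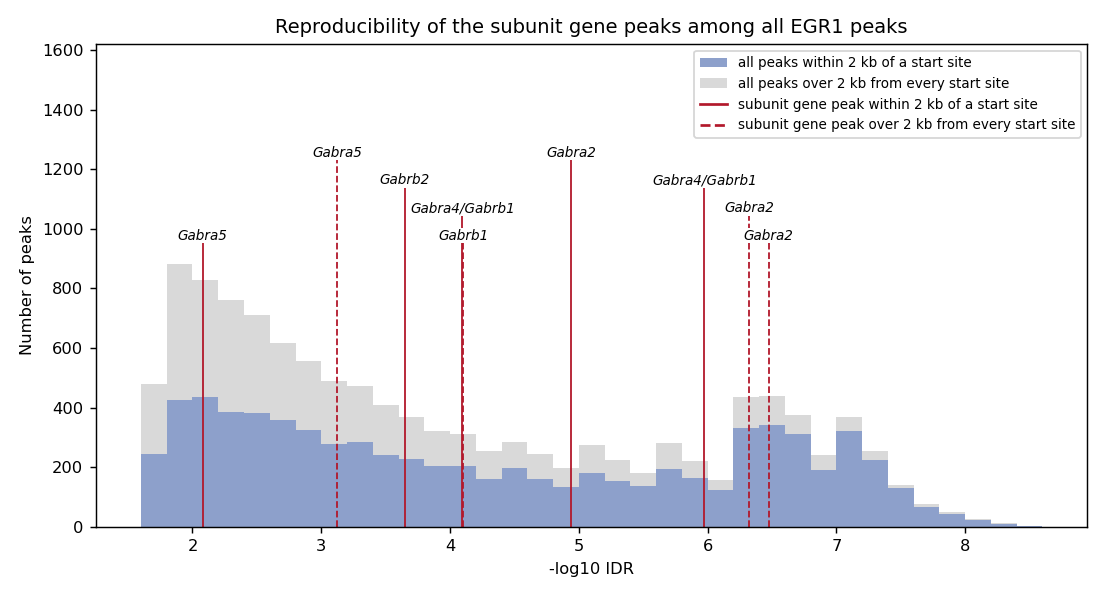
Distribution of −log10 IDR over the 11938 peaks on assembled chromosomes, split by distance to the nearest start site (blue, within 2 kb; grey, farther), with the 9 peaks at the subunit genes as red lines, solid within 2 kb of a start site and dashed farther away. Peaks to the right are more reproducible. Both dashed Gabra2 lines, at IDR 3.36e-07 and 4.74e-07, are the rightmost, and the Gabra5 start site peak, at 0.0083, is the leftmost.

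Peaks inside the genes were rare among protein-coding genes in general. A peak in the gene body more than 2 kb from all of the gene's start sites was present at 3 of the 7 genes, Gabra2, Gabra5 and Gabrb1, and at 1946 of the 22028 protein-coding genes, or 8.83%. Gabra2 and Gabrb1 were each assigned 3 peaks, and 3 or more were assigned to 4.8% of protein-coding genes, 1057 in all. For Gabrb1, 2 of the 3 were the peaks shared with Gabra4. In the whole family of 19 subunit genes, 5 had such a gene-body peak and 4 had 3 or more peaks. Among the 7 NMDA receptor genes these counts were 5 and 3, and among the 9 AMPA and kainate receptor genes 2 and 2. They were 1 and 0 for the 5 glycine receptor genes, and 1 and 1 for the 16 nicotinic receptor genes. These 7 genes are long, with a median of 138.0 kb against 17.3 kb over all protein-coding genes. The shares of 8.83% and 4.8% were taken over genes of all lengths, and neither was computed by length. The share of genes with any peak rose with gene length and was 34.4% for genes shorter than 50 kb, 53.5% for genes of 50 to 200 kb and 68.2% for genes of 200 kb or more. In the shortest class stood Gabrd, with 0 peaks. Gabra2, Gabra4 and Gabra5 made up the middle class, and 3 of 3 had a peak. Gabra3, Gabrb1 and Gabrb2 made up the longest class, and 2 of 3 had one.

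The base composition of the peaks followed their place in the gene. GC content was 72.2% in the peak at the shared start of Gabra4 and Gabrb1, 72.0% at the Gabra2 start, 62.8% at the Gabra5 start and 62.4% at the Gabrb2 start. The intronic peaks had 41.7% at Gabra5, 41.9% and 43.1% at Gabra2 and 48.5% at Gabrb1. The peak beside the Gabra4 start lay between these groups, with 56.7%. All 4 peaks far from start sites were thus below each of the 5 near one. The median GC content was 62.8% for the 5 and 42.5% for the 4. Over the whole list the corresponding medians were 65.5% and 52.3%. CpG dinucleotides, the bases at which mammalian DNA is methylated, were also more frequent near start sites relative to the C and G content, with 1 exception. The CpG observed/expected ratio, which compares the number of CpGs with that expected from the C and G content, was 1.11 at the Gabra2 start, from 23 CpGs in 200 bp, and 0.98 at the Gabra4 and Gabrb1 start, from 32 CpGs in 255 bp. It was 0.74 at the Gabra5 start, 0.56 at the Gabrb2 peak and 0.40 at the peak beside the Gabra4 start. Among the intronic peaks it was 0.41 and 0.29 at Gabra2, 0.26 at Gabrb1 and 0.0 at Gabra5, whose peak of 264 bp held 0 CpGs. The exception was the Gabra2 peak at 33.9 kb, whose 0.41 was not below the 0.40 of the peak beside the Gabra4 start. The median was 0.74 for the 5 peaks near a start site and 0.27 for the 4 others, and over the whole list the corresponding medians were 0.76 and 0.29. The median over all 9, 0.41, was below the 0.60 of all peaks.

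**Figure D3:**
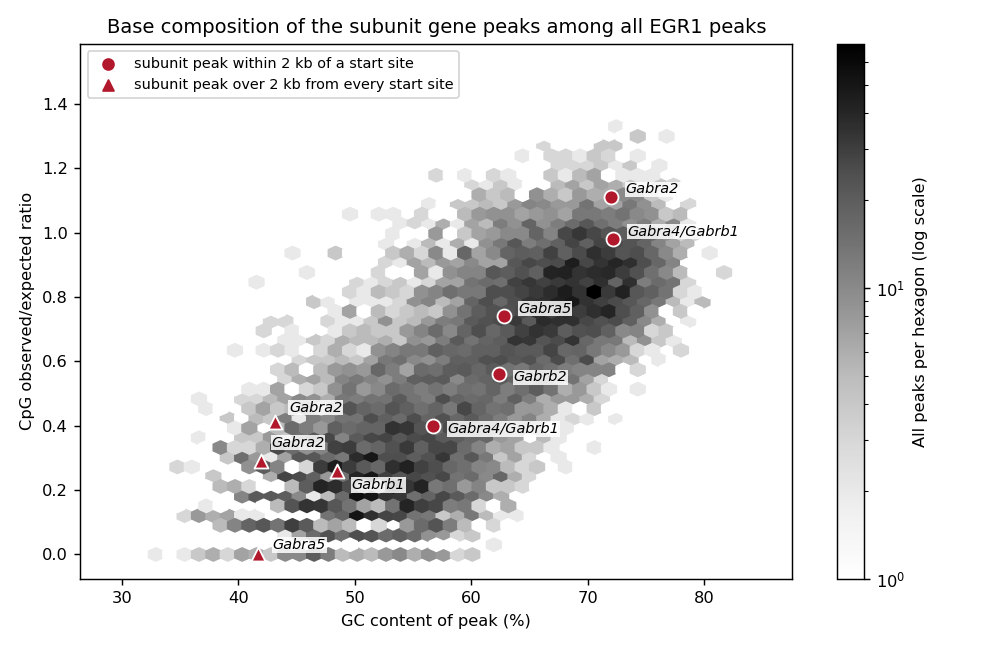
GC content against the CpG observed/expected ratio for all 11938 peaks on assembled chromosomes (grey hexagons, log colour scale) and the 9 peaks at the subunit genes (red; circles within 2 kb of a start site, triangles farther away). The circles run from 56.7% to 72.2% GC and the triangles from 41.7% to 48.5%, within the ranges of the whole list.

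None of the 9 peaks held an exact EGR1 sequence. The words searched were GCGTGGGCG and GCGGGGGCG, on both strands, and 0 of 9 peaks had either (95% Wilson interval 0.0% to 29.9%, counting error only). Over all peaks 1987 of 11938, or 16.6% (16.0% to 17.3%), had one, with 22.2% near start sites and 6.87% elsewhere. The exact sequence was more frequent among reproducible peaks. Of the 1821 peaks with an IDR at or under that of the best Gabra2 peak, 39.6% held it. A word with at most 1 mismatch was found in 6 of the 9 peaks, or 66.7%, against 69.8% of all peaks. These 6 included all 5 peaks near a start site, where the share over the list was 81.6%, and 1 of the 4 others, where it was 49.1%.

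The nearest matches differed from one peak to the next. Substitutions are given with the base of the EGR1 sequence first, then the position counted from 1 at its 5′ end, then the base of the peak. The Gabra2 start peak held 2 overlapping words with 1 mismatch each, C2T and G5A. The shared start of Gabra4 and Gabrb1 held 4, of which 2 lay within 5 bp of the peak centre with G6C and C2A, and 2 repeats lay 69 and 85 bp from it with T4C. The peak beside the Gabra4 start held 1, with C2A, 7 bp from the centre. Gabrb2 held 4 such words, spread from 5 to 111 bp from the centre, and the most central one carried C2T. The Gabra5 start peak held 2, with G1C and G9C. Away from the start sites, the Gabra2 peak at 33.9 kb held 1 word, with C8T, 19 bp from the centre. The other intronic peaks came no closer than 2 mismatches, and in the narrow Gabra2 peak the best word was at its very edge, 42 bp from the centre. In a wider window of 500 bp on the centre, 0 of the 9 peaks gained an exact match.

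Sequences of other factors were searched in the same way. The Sp1 core GGGCGG lay in 4 of the 9 peaks, those at the Gabra2 start, Gabrb2, and the shared and neighbouring Gabra4 peaks, and in 55.8% of all peaks. It can overlap the EGR1 sequence, since both hold GGGCG. The AP-1 sequence TGANTCA was found in 1 of the 9, the Gabra2 peak at 33.9 kb, as tgagtca, and in 6.48% of all peaks, or 11.1% of those far from start sites. The E-box CAGCTG was found in the Gabrb1 intronic peak and in 16.4% of all peaks. Neither the cAMP response element TGACGTCA, in 1.30% of all peaks, nor the E-box CACGTG, in 7.46%, occurred in any of the 9. A match is a word in the DNA and does not show that a factor was bound.

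The same words were searched in reference promoters, whose limits do not depend on the peaks. The RefSeq table used here (GRCm38) held 10 promoter windows for 6 of the 7 genes, each 250 bases before to 50 after a start. An exact EGR1 sequence was in 0 of the 10, and in 1139 of 32851 windows over all genes, or 3.47%. At most 1 mismatch was in 4 of the 10, 1 each for Gabra2, Gabra5, Gabrb1 and Gabrb2, and in 27.2% of all windows. These were also the 4 windows that a peak overlapped, and some of the same bases lie in the peaks. The Gabra4 window came no closer than 2 mismatches, and no peak overlapped it. Both Gabra3 windows came no closer than 3 mismatches, with a CpG ratio of 0.0.

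Across the whole family of 19 subunit genes, 7 had a peak, or 36.8%, close to the 39.4% of all protein-coding genes. Outside the 7 genes described above, Gabrg3, which encodes the gamma 3 subunit, was assigned 3 peaks. The most reproducible peak of the family lay 486 bp inside Gabrg3, at chr7:57386620-57386784, with an IDR of 8.73e-08. It held an exact EGR1 sequence, unlike the 9 peaks above. Gabrg1 and Gabra6 had 0, with the nearest peak 184.0 and 70.1 kb away. Gabre, Gabrq and Gabrp had 0, at 257.0, 403.0 and 122.0 kb. The rho subunit genes of the retina, Gabrr1, Gabrr2 and Gabrr3, had 0 at 115.0, 79.5 and 64.5 kb. All 7 family members shorter than 50 kb lacked a peak, 3 of 7 of 50 to 200 kb had one and 4 of 5 of 200 kb or more had one.

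Other genes of GABAergic transmission were counted from a list of 28 that covers synthesis, transport, the metabotropic receptor, scaffolds and chloride transporters. A peak was present at 21 of the 28, or 75.0%, against 39.4% of all protein-coding genes. This list, too, was chosen with earlier results of these data known. Its genes are shorter than the 19 subunit genes, with a median of 38.2 kb against 88.6 kb. The lowest IDR belonged to Gphn, the gephyrin scaffold that anchors GABA-A receptors, at 3.94e-08. Next came Gabarapl1, a member of the family that binds receptors during trafficking, at 4.18e-08, and Iqsec3, a partner of gephyrin, at 5.87e-08. Abat, the enzyme that breaks down GABA, followed at 6.58e-08, and Clptm1, which holds receptors back inside the cell, at 7.18e-08. All 5 were below the lowest value of the 7 subunit genes, 3.36e-07, but they were picked as the lowest of a longer list of 28. For Iqsec3 and Clptm1 the lowest value was not that of the peak nearest a start site, which had an IDR of 1.02e-07 and 3.18e-06. The same held for Gabra2, whose start site peak had 1.14e-05. Among the genes without a peak were the GABA transporters Slc6a11 and Slc6a13, the degrading enzyme Aldh5a1, and Insyn1, Ubqln1 and Zdhhc3, which act in the assembly or trafficking of inhibitory synapses.

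**Figure D4:**
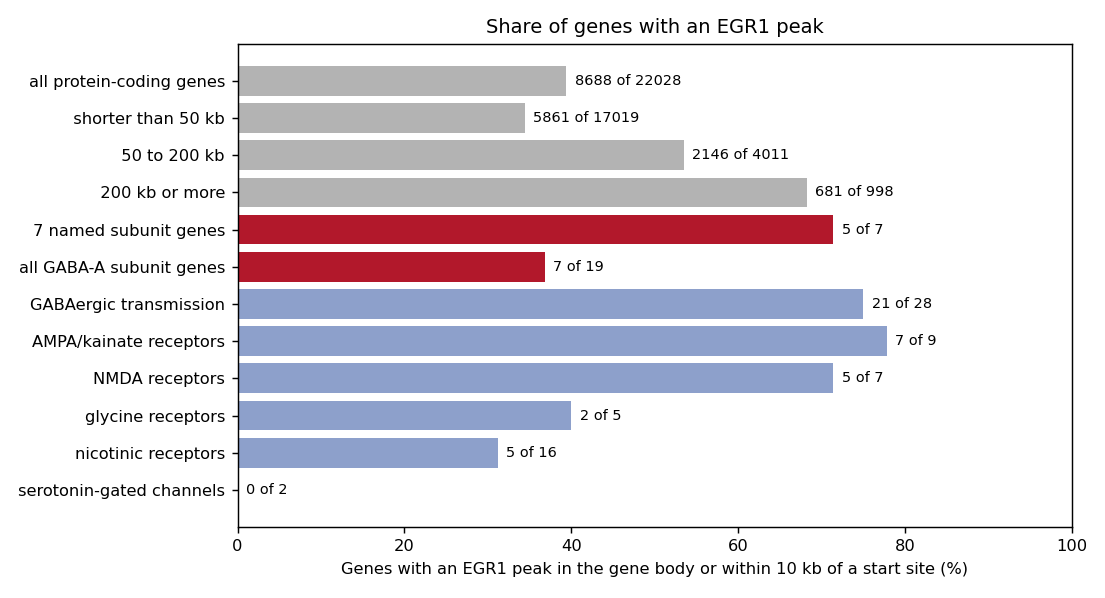
Share of genes with an EGR1 peak in the gene body or within 10 kb of a start site, for all protein-coding genes and by gene length (grey), the GABA-A receptor subunit genes (red) and other gene lists (blue), with the counts beside each bar. The 7 genes reach 71.4% and the whole family 36.8%, against 39.4% of all protein-coding genes.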

How the data were processed

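EGR1 ChIP-seq was done on frontal cortex of male F1 hybrid mice. Per the study's methods, the authors removed low-quality bases, aligned reads with Bowtie to the mm10 build, ran SPP on each replicate and merged the peaks that passed an IDR threshold. The submitters' processing notes name cutadapt 11.2, Bowtie2 2.2.9 and bedtools 2.26.0. The deposited values are IDRs, a kind of q-value between replicates, 1 per merged peak. Starts were read as 0-based (BED) and are printed 1-based. An IDR carries no signal, so peaks can be ranked but their binding strength cannot be compared.

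Peaks were assigned to GENCODE M21 genes by their centres with Python 3.11.15 (numpy 2.4.6, scipy 1.17.1). Chromosome lengths of GRCm38 held all peaks, and 76 peaks on other scaffolds entered no sequence measure. Base composition and motifs were read from the GRCm38 sequence. The search and the gene rule were checked on simulated data. No test between groups was made, since 1 merged list has no replicate values. The 7 genes and the lists were chosen with earlier results of these data known. All 7 genes with each of their peaks, the other subunit genes, and, of the GABAergic genes, those without a peak and the 5 of lowest IDR are named, except a few genes that are not reported here. The second set of sequences, the length classes, the 1-kb and gene-body counts and the promoter search were added after the values were seen. The main alternatives were stricter IDR limits, other gene windows and other motif rules.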

Additional observations from a re-analysis of the deposited data

How the results depend on the processing

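The list of the 9 peaks kept its size within 1.5 times, from 7 to 11, under 7 of the 8 alternatives for it. Without the gene body, within 10 kb of a start site alone, 5 peaks were counted in place of 9, since the 4 deep intronic peaks drop out by construction. The number of subunit genes with a peak stayed at 7 under all but the 50-kb limit, where it was 8 and Gabrd gained a peak. The GABAergic list ranged from 16 to 24 of 28. The share of protein-coding genes with a peak, 39.4%, moved by more than its binomial interval in most settings, to 36.9% at an IDR of at most 0.01, 28.8% at an IDR of at most 0.001, 34.0% with a 2-kb limit, 58.5% with a 50-kb limit, 37.1% without the gene body, 23.8% with the gene body alone and 38.5% with start sites of protein-coding transcripts only. The number of peaks with the EGR1 sequence, 0, became 6 when 1 mismatch was allowed and stayed at 0 in a 500-bp window and at the stricter IDR. The median CpG ratio of 0.41 ranged from 0.34 to 0.41, less than the spread among the 9 peaks. No paired analysis was possible because the list merges both replicates and holds no value for either, and for the same reason neither replicate could be left out. No depth is given, so a gene without a peak may hold binding below the limit of detection.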

Other observations

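Other neurotransmitter-gated channel genes were counted by the same rule. A peak was present at 7 of 9 AMPA and kainate receptor genes, which encode the fast excitatory receptors, and at 5 of 7 NMDA receptor genes. Glycine receptor genes, whose products are inhibitory chloride channels like the GABA-A receptor, had a peak at 2 of 5. Nicotinic acetylcholine receptor genes had one at 5 of 16, and the serotonin-gated channel genes at 0 of 2. Median gene length was 319.0 kb for the AMPA and kainate receptor genes, 46.5 kb for the NMDA receptor genes, 94.0 kb for the glycine receptor genes and 17.5 kb for the nicotinic receptor genes. The same rule gave a peak to 39.4% of all protein-coding genes. That share was 34.4% for genes shorter than 50 kb, 53.5% for genes of 50 to 200 kb and 68.2% for genes of 200 kb or more. No difference between these lists, or from those shares, was tested.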
